A study of Mus musculus with 24 samples.

Results

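The comparison described here set hippocampal gene expression in mice with a kinase-dead form of MSK1 (MSK1 KD) against wild-type (WT) mice, both raised under standard housing. It used all 12 standard-housed libraries of the 24 in the series, 6 from WT and 6 from MSK1 KD mice, chosen by their labels alone. All 12 passed the sequencing quality control. The study as a whole crossed the 2 genotypes with standard or enriched housing, and each library was poly-A RNA from the hippocampus of male mice. WT SH libraries 10 to 15 came from WT mice, and KD SH libraries 1 to 6 from mice homozygous for the kinase-dead allele, all labelled as 12 weeks old. Standard housing was a small group in an ordinary cage, and the mice were experimentally naive. The mutant allele was made in a C57BL/6N-derived background and crossed onto C57BL/6J, and mutants and WT were kept as separate lines, so that genotype and line cannot be told apart. The mutation was in every cell of the body. Nothing says whether a library was a single mouse, so the spread between libraries may be partly technical. Levels are given as CPM, the counts of a gene relative to the scaled size of its library.

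MSK1, encoded by Rps6ka5, is a nuclear protein kinase switched on by the ERK and p38 MAP kinases. In neurons it lies downstream of BDNF acting on its receptor TrkB, and it phosphorylates the transcription factor CREB and histone H3 at the promoters of genes that respond to neuronal activity. MSK1 carries 2 kinase domains in a single protein, and the N-terminal domain is the one that phosphorylates its targets.

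The kinase-dead allele replaces the aspartate at residue 194, in the N-terminal kinase domain, with alanine. This aspartate begins an Asp-Phe-Gly motif that holds the magnesium of the ATP complex. In the reference, its codon lies in exon 5 of Rps6ka5, on the minus strand at chr12:100616030-100616032 of GRCm38. The reference coding sequence around it is shown because it is the only designed difference between the groups, with the codon of residue 194 in capitals. An Asp-Phe-Gly motif also occurs at residue 629, in the C-terminal domain, and the second sequence shows its codon in capitals.
Rps6ka5, N-terminal domain: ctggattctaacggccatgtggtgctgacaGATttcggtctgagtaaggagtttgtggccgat
Rps6ka5, C-terminal domain: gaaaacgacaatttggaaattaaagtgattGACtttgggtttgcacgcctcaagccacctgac

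The level of Rps6ka5 was first compared between genotypes, since a point mutation leaves the transcript in place. Gene counts cannot show the base change, so that they do not check the genotype labels. In WT SH libraries Rps6ka5 lay at a lowest of 22.3, a median of 25.4 and a highest of 28.3 CPM, and in KD SH libraries at 22.03, 25.8 and 28.2 CPM. The groups overlapped over almost their whole range. The difference in mean log2 CPM, KD minus WT, was 0.04, with p = 0.641 in a two-sided exact permutation test over all 924 ways to assign the genotype labels. Without libraries 2 and 12 it was 0.05, with p = 0.524 in the exact permutation test. The model gave a log2 fold change of 0.03 (SE 0.07, 95% interval -0.12 to 0.18), which lay within the fold threshold used below.

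The closest relative, MSK2, encoded by Rps6ka4, lay at a median of 39.7 CPM in WT SH and 38.7 CPM in KD SH, with a log2 fold change of -0.05 (SE 0.07). The ribosomal S6 kinases RSK1, RSK3, RSK2 and RSK4, encoded by Rps6ka1, Rps6ka2, Rps6ka3 and Rps6ka6 and also activated by ERK, had log2 fold changes between -0.02 and 0.04. None of the 6 kinases reached an unadjusted p under 0.05. The sign of these small differences changed with the libraries used for 5 of the 6.

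Libraries 2 (KD SH) and 12 (WT SH) were left out by the study for poor correlation with their group, and they stood apart here as well. On the first principal component of the 500 most variable genes, which held 33.9% of the variance, they lay at 20.6 and 21.5, against -14.6 to 5.86 for the other 10. Among its leading genes were Ttr, Kcne2 and Aqp1, which mark the choroid plexus, the epithelium that makes cerebrospinal fluid beside the hippocampus. Ttr, encoding transthyretin, was at up to 1667 CPM in WT SH and 2635 CPM in KD SH, against lowest values of 28.5 and 16.8 CPM. The mean log2 CPM of a list of 15 choroid plexus genes was 5.44 in library 2 and 4.83 in library 12, and 3.73 in library 11 of WT SH, against 0.75 to 2.19 in the others. Library 12 was also highest for a list of 10 thalamic genes, at 5.37 against 3.01 to 3.72, and library 14 of WT SH was highest for a list of 9 striatal genes, at 4.82 against 3.37 to 3.66. Values without libraries 2 and 12 are therefore given beside those of all 12 libraries for most gene lists, the length classes and several of the genes described by library. All 12 libraries carried the hippocampal markers Prox1 of the dentate gyrus (81.5 to 136.6 CPM) and Wfs1 of CA1 (136.2 to 218.8 CPM). The Y-linked gene Ddx3y was at 48.6 to 70.2 CPM in every library, with Xist at or below 0.34 CPM. Depth was 23197006 to 40854571 counts on genes in WT SH and 18187696 to 54292242 in KD SH.

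**Figure D1:**
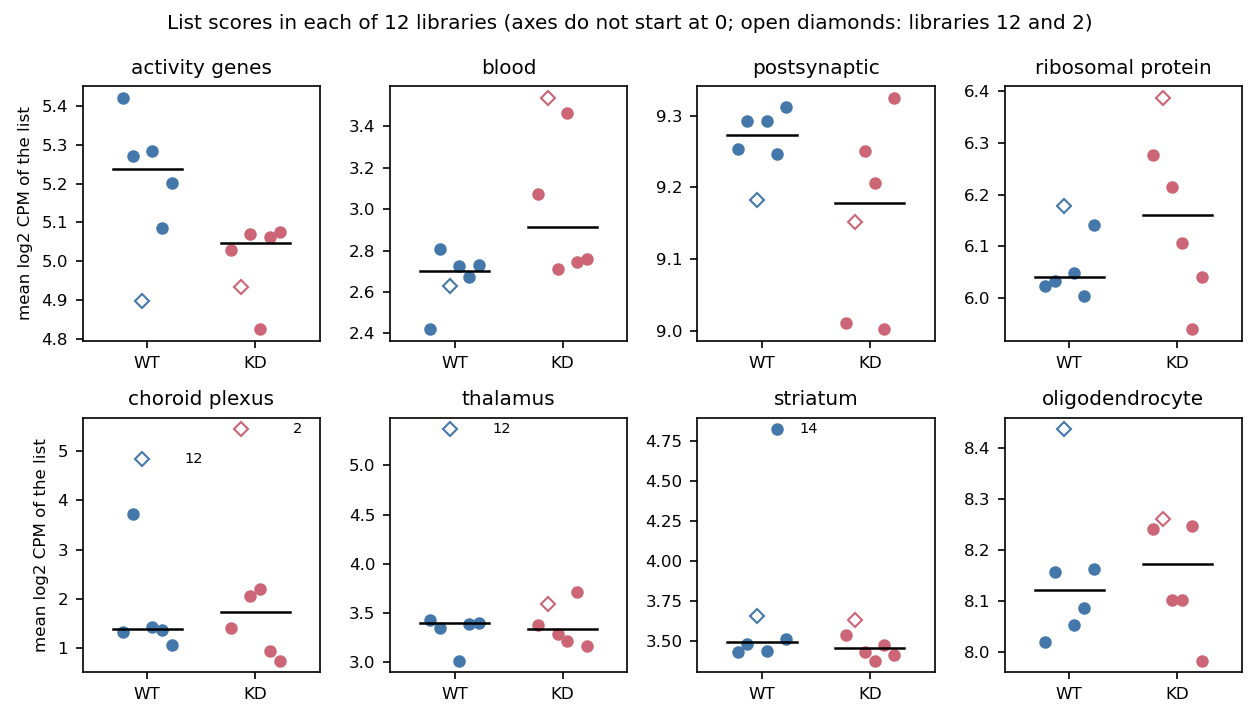
Mean log2 CPM of 8 gene lists in each of the 12 libraries, WT in blue and KD in red, with the group median as a line and libraries 12 and 2 as open diamonds. The axes do not start at 0. Libraries 2 and 12 stood highest for choroid plexus genes, 12 for thalamic genes and 14 for striatal genes, and the activity genes of the KD libraries lay between 4.82 and 5.08.

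No gene was called different between the genotypes. Of 17571 genes tested, 0 (0%) passed an adjusted p of 0.05 with a fold change of at least 1.30 in either direction, by edgeR's quasi-likelihood test with Benjamini-Hochberg adjustment. The lowest adjusted p was 0.761, and 1084 genes (6.17%) had an unadjusted p under 0.05, 558 (3.18%) higher and 526 (2.99%) lower in MSK1 KD. Without libraries 2 and 12, 0 of 17582 genes were called and 904 (5.14%) had an unadjusted p under 0.05. DESeq2 called 0 of 33765 genes, with 1327 (3.93%) at an unadjusted p under 0.05, and limma voom 0 of 17571, with 1454 (8.28%). The count at an unadjusted p under 0.05 was 708 without library 1 and 1920 without library 6. The study, with DESeq2 and without libraries 2 and 12, reported 3 genes as different in this comparison, Rpl22l1, Rpl39 and Gm44164. That fit was not repeated here.

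For most expressed genes the libraries bounded the difference closely. For 11439 of the 14962 genes with a mean of at least 1 CPM (76.5%), the 95% interval of the fold change lay wholly within 1.30-fold of no change. The median log2 fold change over all genes tested was 0.00, a value that the TMM scaling of the counts holds near 0, so that a shift common to all genes could not be seen. In 50 genes (0.285%) the 6 KD libraries did not overlap with the 6 WT libraries, 34 with KD higher and 16 with KD lower. This number was 178 genes (1.01%) without libraries 2 and 12, over 5 and 5 libraries.

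**Figure D2:**
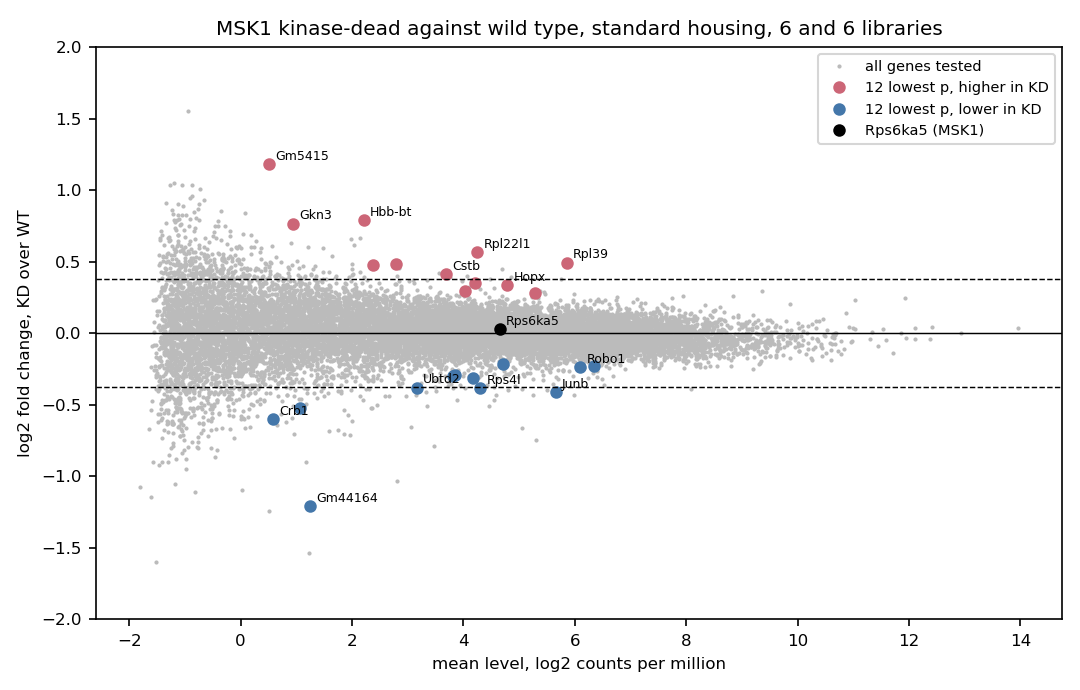
Log2 fold change of MSK1 KD over WT against the mean level in log2 CPM for the 17571 genes tested, with the 12 higher and 12 lower genes of lowest p and Rps6ka5 marked. Dashed lines mark the fold threshold, and 1 gene lies beyond the axis. Rps6ka5 lies near 0, and the 24 marked genes lie at the edge of the cloud, each with an adjusted p of 0.761.

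The genes of lowest p are described next as values, since none passed the adjusted test. Among the 12 higher in MSK1 KD, 5 did not overlap between the groups, against 0.285% of all genes in both directions together. These 12 were picked by p in the same libraries, which favours genes without overlap. Rpl22l1, a paralog of the ribosomal protein gene Rpl22 that lies at chr3:28805436-28807424 of GRCm38, was at 12.6, 15.3 and 17.7 CPM (lowest, median, highest) in WT SH and at 18.6, 21.5 and 29.6 CPM in KD SH. Every KD library lay above every WT library. Its log2 fold change was 0.56 (SE 0.12), and 0.60 without libraries 2 and 12. Rpl22 itself was at 80.3 to 92.7 CPM in WT SH and 83.8 to 100.8 CPM in KD SH. Rpl39, encoding a small protein of the large ribosomal subunit, was at 36.3, 46.1 and 63.3 CPM in WT SH and at 55.7, 67.4 and 80.3 CPM in KD SH. Only WT library 12 lay above the lowest KD libraries, and the log2 fold change was 0.49 (SE 0.12), and 0.54 without libraries 2 and 12. Ribosomal protein genes have many near-identical processed copies in the genome, and how reads were shared among them is uncertain.

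Cstb, encoding the cysteine protease inhibitor cystatin B, was at 9.33, 10.7 and 13.02 CPM in WT SH and at 12.8, 14.3 and 16.9 CPM in KD SH. Psph, encoding the phosphatase that completes serine synthesis, was at 13.3, 14.6 and 16.3 CPM in WT SH and at 15.7, 18.6 and 19.4 CPM in KD SH. In both genes the ranges met only at their edges. Their log2 fold changes were 0.41 (SE 0.09) and 0.29 (SE 0.07), and 0.42 and 0.31 without libraries 2 and 12. The mitochondrial genes Slirp, an RNA-binding protein, and Ndufb3, a subunit of complex I, had log2 fold changes of 0.49 (SE 0.12) and 0.28 (SE 0.07). The others were Rdm1 at 0.47 (SE 0.11), Hopx at 0.34 (SE 0.09), Ly6c1, an antigen of endothelium and monocytes, at 0.35 (SE 0.09), and Gkn3 at 0.77 (SE 0.17). Gm5415, a predicted gene lying antisense within Khdrbs2, was at 1.18 (SE 0.29), at levels of only 0.57 to 3.42 CPM. Reads of Khdrbs2 and Gm5415 cannot be told apart, because strand was not used in counting.

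Hbb-bt, encoding an adult beta globin, was at 2.88, 3.43 and 3.802 CPM in WT SH and at 3.87, 6.04 and 8.04 CPM in KD SH, without overlap. Its log2 fold change was 0.79 (SE 0.17), and 0.68 without libraries 2 and 12. All 5 genes of a blood list were higher in MSK1 KD, 3 of them at an unadjusted p under 0.05 against 3.18% of all genes, with a median log2 fold change of 0.38. Without libraries 2 and 12 the median was 0.29, with 2 at an unadjusted p under 0.05 against 2.85% of all genes. In enriched housing all 5 were lower in MSK1 KD, with a median of -0.22 and 0 at an unadjusted p under 0.05. The score of the list was highest in KD library 2, at 3.54, and ranged from 2.42 to 2.81 in WT SH and from 2.71 to 3.54 in KD SH. Globin copies are near-identical. Red cell RNA left in the tissue and RNA made by brain cells cannot be told apart in whole hippocampus, and more generally fewer cells of a type and less RNA per cell cannot be told apart. The part of blood content in these differences was not tested.

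Among the 12 genes lower in MSK1 KD, also picked by p in these libraries, 4 did not overlap, against 0.285% of all genes. Crb1, encoding the cell polarity protein Crumbs, was at 1.55, 1.68 and 2.12 CPM in WT SH and at 0.97, 1.16 and 1.36 CPM in KD SH. Each KD library was below each WT library, with a log2 fold change of -0.60 (SE 0.14), and -0.61 without libraries 2 and 12. C57BL/6N mice are known to carry the rd8 mutation of Crb1, which C57BL/6J mice lack, and the founder strain of the mutant allele was C57BL/6N. Whether rd8 was present was not tested. Cited2, encoding a protein that binds the coactivators CBP and p300, held to a narrow range of 27.6 to 29.1 CPM in WT SH and was at 21.7 to 26.3 CPM in KD SH (log2 fold change -0.22, SE 0.06). Rps4l, annotated as a transcribed processed pseudogene within Tmtc1, was at 20.5 to 25.8 CPM in WT SH and 12.3 to 19.9 CPM in KD SH (log2 fold change -0.38, SE 0.10). The fourth was Adamts3, a procollagen-cleaving protease, at -0.31 (SE 0.08).

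Gm44164, a transcript of unconfirmed coding status, had the lowest log2 fold change of the 24, -1.21 (SE 0.29). It was at 1.67, 3.53 and 4.52 CPM in WT SH and at 0.54, 1.29 and 2.47 CPM in KD SH. WT libraries 11 and 12 lay within the KD range, and the other 4 WT libraries lay above it. Its log2 fold change was -1.34 without libraries 2 and 12. It overlaps another gene, so that its counts are uncertain. Robo1, the receptor for the axon guidance protein Slit, was at -0.24 (SE 0.06), the neuronal kinase gene Pak6 at -0.23 (SE 0.06), the retinal cadherin gene Cdh4 at -0.29 (SE 0.08) and Wnt4 at -0.30 (SE 0.08). Ubtd2 was at -0.38 (SE 0.09) and Pappa2, a protease of insulin-like growth factor binding proteins, at -0.53 (SE 0.14).

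**Figure D3:**
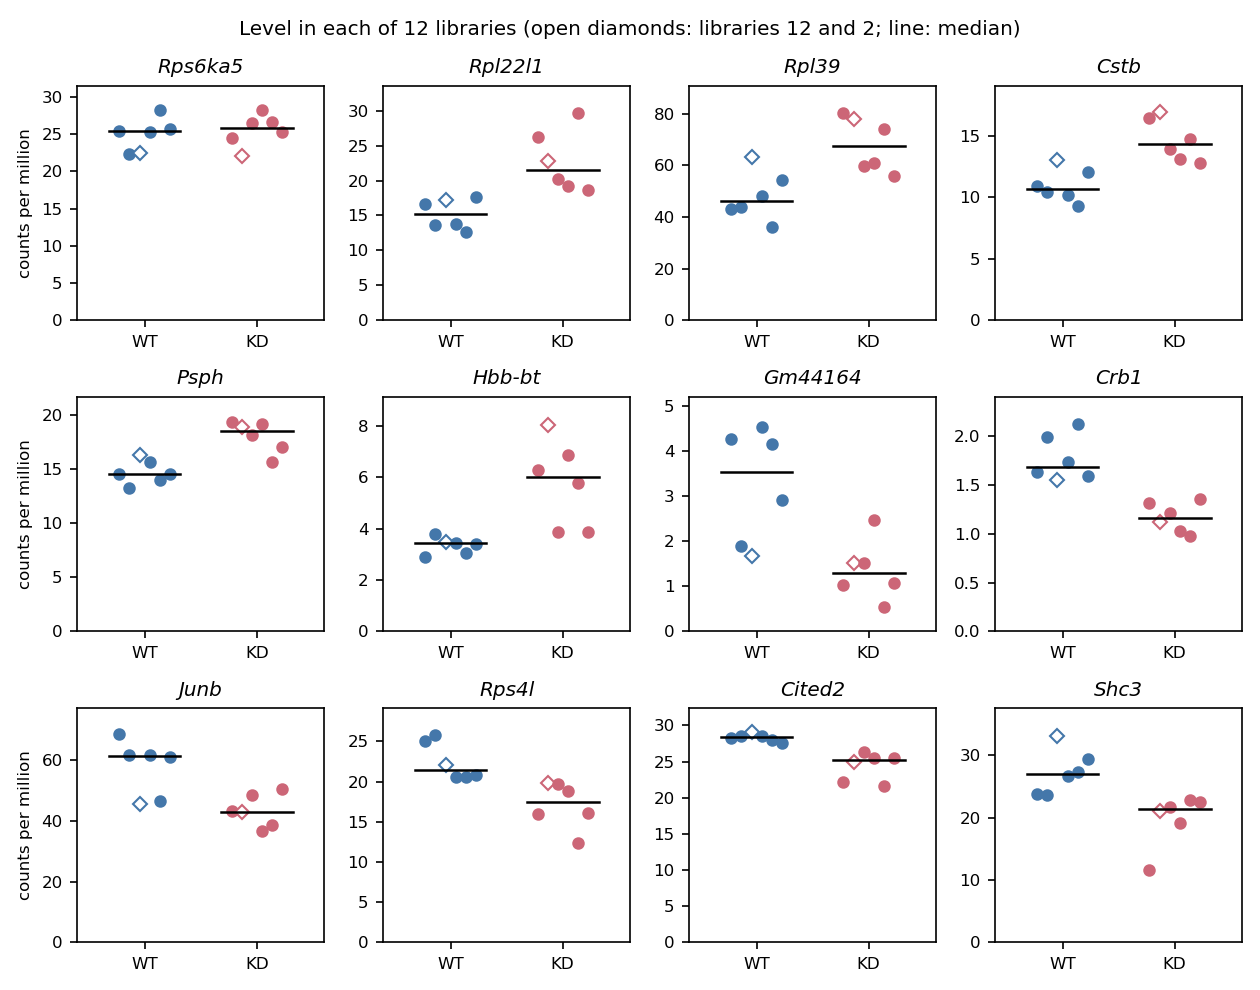
CPM of 12 genes in each of the 12 libraries, WT in blue and KD in red, with the group median as a line and libraries 12 and 2 as open diamonds. Rps6ka5 overlaps between genotypes over nearly its whole range, Rpl22l1, Hbb-bt, Crb1, Rps4l, Cited2 and Shc3 do not overlap, and Rpl39, Cstb, Psph, Gm44164 and Junb overlap in part.

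The genes that respond to neuronal activity were next examined, because MSK1 acts through CREB at their promoters. Of 26 such genes 23 were lower in MSK1 KD, 13 of them at an unadjusted p under 0.05 and none higher at that level, against 2.99% of all genes lower and 3.18% higher, with a median log2 fold change of -0.18 against 0.00 over all genes. Without libraries 2 and 12 the median was -0.22, with 23 lower and 12 at an unadjusted p under 0.05, against 2.29% of all genes lower in that comparison. None of the 26 passed the adjusted test, and the list was chosen with earlier results of these data known. Junb, encoding a partner in the AP-1 transcription factor, was at 45.7, 61.5 and 68.6 CPM in WT SH and at 36.7, 43.1 and 50.5 CPM in KD SH (log2 fold change -0.41, SE 0.10, and -0.46 without libraries 2 and 12). WT libraries 12 and 14 lay in the KD range and the other 4 WT libraries lay above every KD library.

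Fos, the other AP-1 partner and a standard marker of active neurons, was at 15.8, 24.3 and 38.6 CPM in WT SH and at 12.6, 16.7 and 27.1 CPM in KD SH, with a log2 fold change of -0.51 (SE 0.20), and -0.59 without libraries 2 and 12. Egr2, a zinc finger factor, had the lowest value of the list at -0.69 (SE 0.23), at levels of only 1.67 to 5.59 CPM. Npas4, a factor induced by calcium entry in neurons, was at 25.3 to 32.7 CPM in WT SH and 22.1 to 27.7 CPM in KD SH (log2 fold change -0.27, SE 0.07). The groups overlapped for each of these genes. Fosb, Egr3, Egr4, Nr4a3, Ier2, Btg2, Dusp1, Sik1 and Vgf made up the other 9. Both Egr1 and Arc are required for lasting plasticity. Egr1 was at -0.06 (SE 0.11, 95% interval -0.30 to 0.18), and Arc, near the median of the list, at -0.17 (SE 0.17, 95% interval -0.53 to 0.18). Only Ier5, Inhba and Rgs2 were higher, by at most 0.19 on the log2 scale.

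By library, the mean log2 CPM of the 26 genes was 4.90, 5.24 and 5.42 (lowest, median, highest) in WT SH and 4.82, 5.05 and 5.08 in KD SH. The groups overlapped through WT library 12 alone, which held the lowest WT value, while the other 5 WT libraries lay above all 6 KD libraries. The count at an unadjusted p under 0.05 depended on single libraries and on the fit. It was 7 without library 10, against 429 of 17802 genes lower at that level. Without library 4, 11 or 13 it was 8, against 539 of 17635, 380 of 17801 and 469 of 17647 genes. In a fit of all 4 groups over 22 libraries, which kept all 12, it was also 8, against 520 of 18482 genes. The count was 18, with a median of -0.27, without libraries 12 and 14, against 539 of 17966 genes. That setting was chosen after seeing the data.

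The reference promoters of Fos, Junb, Btg2 and Dusp1 are printed because CREB, the target of MSK1, binds the cAMP response element (CRE) TGACGTCA and its shorter core TGACG. The windows run from 250 bases before to 50 bases after the RefSeq transcript start in GRCm38.p6, with TGACG, or CGTCA on the other strand, in capitals. A full CRE holds both strings of letters, which overlap.
Fos, chr12:85473640-85473939, plus strand: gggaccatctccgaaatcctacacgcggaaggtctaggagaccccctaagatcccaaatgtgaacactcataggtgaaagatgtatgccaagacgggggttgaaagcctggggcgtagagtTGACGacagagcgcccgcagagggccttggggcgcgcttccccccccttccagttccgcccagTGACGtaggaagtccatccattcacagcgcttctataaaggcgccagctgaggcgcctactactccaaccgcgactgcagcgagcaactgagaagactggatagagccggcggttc
Junb, chr8:84978699-84978998, minus strand: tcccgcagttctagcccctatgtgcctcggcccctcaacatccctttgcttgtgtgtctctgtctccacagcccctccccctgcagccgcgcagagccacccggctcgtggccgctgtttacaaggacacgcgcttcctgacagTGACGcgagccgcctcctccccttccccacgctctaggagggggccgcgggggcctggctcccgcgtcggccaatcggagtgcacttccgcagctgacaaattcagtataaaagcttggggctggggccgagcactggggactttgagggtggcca
Btg2, chr1:134079106-134079405, minus strand: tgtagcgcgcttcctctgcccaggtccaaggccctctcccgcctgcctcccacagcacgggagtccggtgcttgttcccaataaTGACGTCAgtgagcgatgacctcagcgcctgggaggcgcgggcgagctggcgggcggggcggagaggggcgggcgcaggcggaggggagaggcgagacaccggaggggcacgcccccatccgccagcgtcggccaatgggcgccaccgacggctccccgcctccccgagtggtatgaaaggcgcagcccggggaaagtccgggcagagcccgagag
Dusp1, chr17:26508423-26508722, minus strand: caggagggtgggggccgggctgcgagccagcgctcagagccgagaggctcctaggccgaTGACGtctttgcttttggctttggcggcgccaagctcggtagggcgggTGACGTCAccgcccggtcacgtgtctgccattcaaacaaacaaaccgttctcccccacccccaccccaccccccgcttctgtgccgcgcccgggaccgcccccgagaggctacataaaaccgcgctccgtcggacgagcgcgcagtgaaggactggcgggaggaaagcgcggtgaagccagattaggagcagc
Of the 26 activity genes 19 had a window, and Egr1, Egr3, Arc, Ier2, Sik1 and Vgf were among those without. Of the 19, 14 (73.7%) held the core in any window and 2, Btg2 and Dusp1, the full element. These shares were 23.0% and 2.03% of 27025 genes. A full element began 166 bases before the start of Btg2 and 143 bases before that of Dusp1. Btg2, an antiproliferative gene, had a log2 fold change of -0.24 (SE 0.11), and Dusp1, a phosphatase that switches MAP kinases off, of -0.26 (SE 0.12). Among the genes higher in MSK1 KD, the window of Rgs2 held the core 2 times, and those of Ier5 and Inhba did not hold it. A match of letters does not show binding, and the part of the core in the differences between genotypes was not tested.

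**Figure D4:**
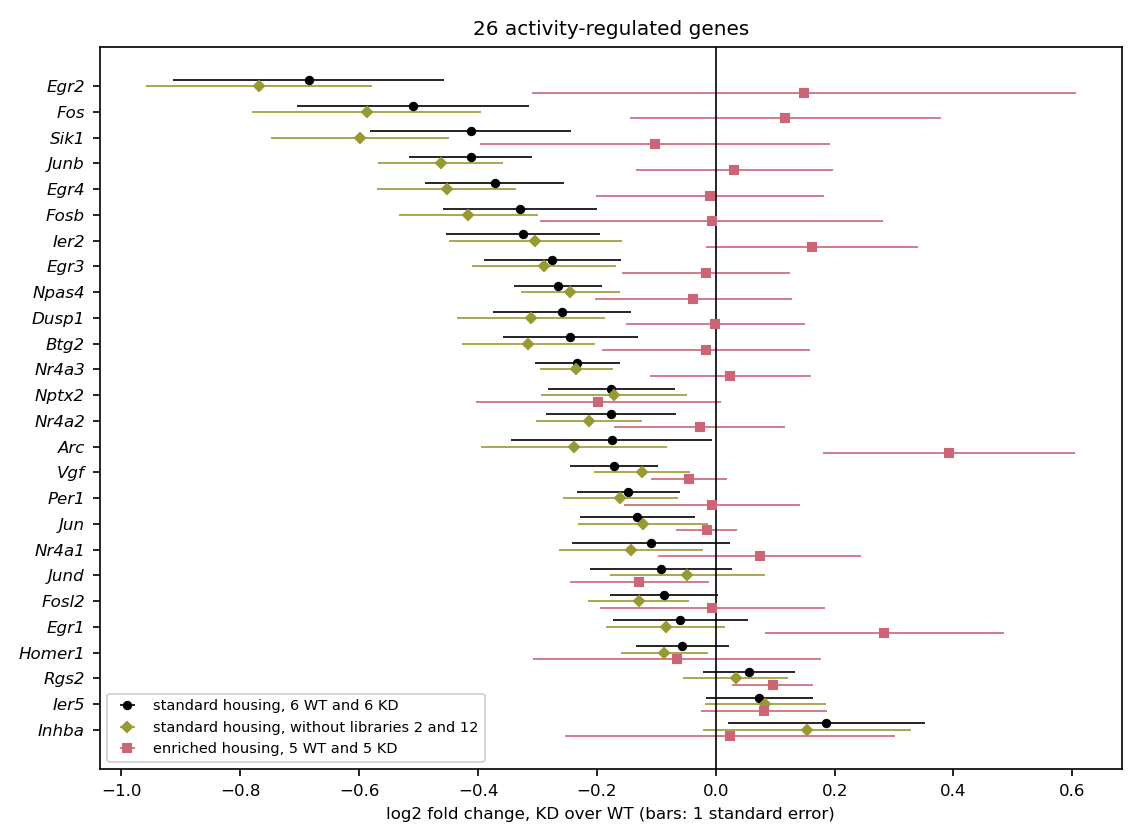
Log2 fold change of MSK1 KD over WT with 1 standard error for 26 activity genes, in standard housing with all 12 libraries, without libraries 2 and 12, and in enriched housing. In standard housing 23 of 26 points lie below 0, and in enriched housing 15 of 26 do, with a median of -0.01.

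The signalling route from BDNF to MSK1 was then followed along its members. Of 21 genes of the route 17 were lower in MSK1 KD, with a median of -0.03, and 1 (lower) had an unadjusted p under 0.05, a share near the 6.17% of all genes. The median was also -0.03 without libraries 2 and 12, with 1 higher and 1 lower at that level, against 2.85% and 2.29% of all genes. The 1 gene was Shc3, encoding a neuronal adaptor that links TrkB to Ras, at 23.7, 27.0 and 33.1 CPM in WT SH and at 11.5, 21.4 and 22.9 CPM in KD SH. The groups did not overlap, with a log2 fold change of -0.47 (SE 0.13), and -0.42 without libraries 2 and 12, and library 1 was far below the other KD libraries. The ligand gene Bdnf was at a median of 38.1 CPM in WT SH and 36.1 CPM in KD SH, with a log2 fold change of -0.01 (SE 0.07). The receptor gene Ntrk2 (TrkB) was at -0.06 (SE 0.05). The kinase genes Mapk3 (ERK1) and Mapk14 (p38 alpha) were at -0.12 (SE 0.07) and -0.01 (SE 0.05).

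None of 12 genes for MSK1 targets and their coactivators reached an unadjusted p under 0.05. Creb1 was at 0.13 (SE 0.08), and the coactivator genes Crebbp and Ep300 at -0.06 (SE 0.06) and -0.12 (SE 0.06). None of 9 feedback inhibitors of ERK, the Spry, Spred and Dusp genes, did so either, with values from -0.13 to 0.10. Without libraries 2 and 12, 1 was lower at that level, against 2.29% of all genes. The 14 AMPA and NMDA receptor genes and their auxiliary subunits ranged from -0.25 to 0.04, with 0 at an unadjusted p under 0.05. The target and receptor lists also had 0 at that level without libraries 2 and 12. Gria1 and Gria2, for the main AMPA receptor subunits, were at -0.09 (SE 0.08) and 0.02 (SE 0.08).

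All 10 postsynaptic scaffold and kinase genes were lower in MSK1 KD, with a median of -0.09, and the scaffold genes Shank1, Shank2 and Shank3 had an unadjusted p under 0.05, against 2.99% of all genes lower at that level. All 10 were also lower without libraries 2 and 12, with a median of -0.10 and 2 at an unadjusted p under 0.05, against 2.29% of all genes. Shank1 was at 607 to 741 CPM in WT SH and 499 to 720 CPM in KD SH, with a log2 fold change of -0.22 (SE 0.08). The score of the list was lowest in KD libraries 5 and 1 (library 5 was also lowest of its group for dentate genes, at 5.34 against 5.83), and without these 2 the median was -0.03, with 0 at an unadjusted p under 0.05.

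Of 83 cytosolic ribosomal protein genes, taken by symbol, 72 were higher in MSK1 KD, with a median of 0.08. At an unadjusted p under 0.05, 10 were higher and 1 lower, against 3.18% and 2.99% of all genes. The 1 lower was Rps4l, the annotated pseudogene described above, and Rpl22l1 had the highest log2 fold change of the list. The median was 0.06 without libraries 2 and 12, with 8 higher and 1 lower at that level, against 2.85% and 2.29% of all genes. The score of the list was highest in KD libraries 2 and 1, at 6.39 and 6.28, and ranged from 6.00 to 6.18 in WT SH and from 5.94 to 6.39 in KD SH, so that the groups overlapped. Without libraries 1 and 5, a setting chosen after seeing the data, the median was 0.10, with 12 at that level against 4.51% of all genes. In enriched housing 73 were higher and 9 lower in MSK1 KD, with a median of 0.07 and 6 at that level against 2.00% of all genes. Of 8 interneuron markers 4 were higher and 4 lower, with a median of 0.01. Pvalb and Vip, which mark separate interneuron classes, had an unadjusted p under 0.05, at 0.39 (SE 0.13) and 0.36 (SE 0.12), against 3.18% of all genes higher at that level. Gad1 and Sst were at 0.05 (SE 0.05) and -0.21 (SE 0.11). The median of the markers was -0.02 without libraries 2 and 12, with 2 higher at an unadjusted p under 0.05, against 2.85% of all genes.

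Transcript length moved with the comparison. Over genes with at least 1 CPM in a group, the median log2 fold change was 0.07 for 459 genes with under 1 kb of exon, 0.05 for 1567 genes of 1 to 2 kb, 0.02 for 4469 of 2 to 4 kb, 0.00 for 5598 of 4 to 8 kb, and -0.04 for 2642 of 8 kb or more. At an unadjusted p under 0.05 the shortest class had 28 genes higher and 7 lower, and the longest 23 higher and 163 lower. These were 6.10% and 1.53% of the shortest class and 0.871% and 6.17% of the longest, against 3.18% and 2.99% of all genes. The medians of these classes were 0.07 and -0.03 without libraries 2 and 12. The difference of short against long genes within a library was highest in KD libraries 1 and 2, at 0.23 and 0.19 on the log2 scale, and ran from -0.13 to 0.08 in WT SH and from -0.11 to 0.23 in KD SH. These libraries also had the highest ribosomal protein scores. The 12 higher genes of lowest p had a median exon length of 1545.5 bases and the 12 lower genes one of 4702.5. Cstb and Ndufb3 have 603 and 763 bases of exon and the 3 Shank genes 9189 to 10768, and the part of length in the differences of all these genes was not tested.

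Markers of neighbouring tissue also moved. The 14 choroid plexus genes tested were all higher in MSK1 KD with all libraries, with a median of 0.20 and 0 at an unadjusted p under 0.05, and 13 were lower without libraries 2 and 12, with a median of -0.55. The thalamic list had a median of -0.48, and 0.06 without libraries 2 and 12. In the striatal list 8 of 9 were lower, 4 at an unadjusted p under 0.05 against 2.99% of all genes, with a median of -0.37. All 9 were lower without libraries 2 and 12, with a median of -0.40 and 2 at that level against 2.29% of all genes, and the median was 0.04 without libraries 12 and 14. Drd1, the dopamine receptor gene of the direct striatal pathway, was at up to 12.7 CPM in WT SH and 4.10 to 5.62 CPM in KD SH. The part of dissection in the other differences was not tested. The endothelial, microglial, ependymal, meningeal, cortical, mitochondrially encoded, oligodendrocyte, astrocyte, dentate, CA1 and CA3 or CA2 lists had medians between -0.07 and 0.05, and between -0.11 and 0.09 without libraries 2 and 12.

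The neighbourhood of Rps6ka5 was examined because DNA beside a targeted gene comes from the founder strain. Of 64 other genes tested within 5 Mb on chromosome 12, 5 had an unadjusted p under 0.05, against 6.17% of all genes, and none was called. Without libraries 2 and 12, 2 did, 1 higher and 1 lower, against 5.14% of all genes. The 5 were Atg2b, Btbd7, D130020L05Rik and Tunar, lower in MSK1 KD by 0.12 to 0.35 on the log2 scale, and Gskip, at 0.15 (SE 0.06). By chromosome, 4.48% to 7.68% of genes had an unadjusted p under 0.05, with 6.54% on chromosome 12.

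Of 5 genes tested from a list of genes known to differ between C57BL/6 substrains, 3 were higher and 2 lower in MSK1 KD. Their median log2 fold change was 0.01, and -0.01 without libraries 2 and 12. At an unadjusted p under 0.05, 1 was higher and 0 lower, against 3.18% and 2.99% of all genes. Levels of Gabra2 and Nnt varied among libraries. Gabra2, the GABA receptor subunit gene lowered by an intronic deletion in C57BL/6J, was at 84.9 and 96.5 CPM in WT libraries 12 and 13 and at 99.5 CPM in KD library 3, against 131.5 to 254.6 CPM in the others. Both levels were thus present in both genotypes. Nnt, the mitochondrial transhydrogenase gene deleted in part in C57BL/6J, was at 19.4 to 22.8 CPM in WT SH and 20.5 to 38.3 CPM in KD SH, highest in KD libraries 5 (38.3 CPM) and 6 (29.97 CPM). Its log2 fold change was 0.31 (SE 0.12). Amd2 was at 0.22 CPM in WT library 13 against 2.80 to 6.14 CPM in the other 11. Capn11 was at 8.24 CPM in WT library 12 and 8.07 CPM in KD library 6, and at 0.22 to 4.00 CPM in the others. The last 2 genes were chosen after their values were seen. The genetic background of each animal and its part in the comparison were not tested.

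**Figure D5:**
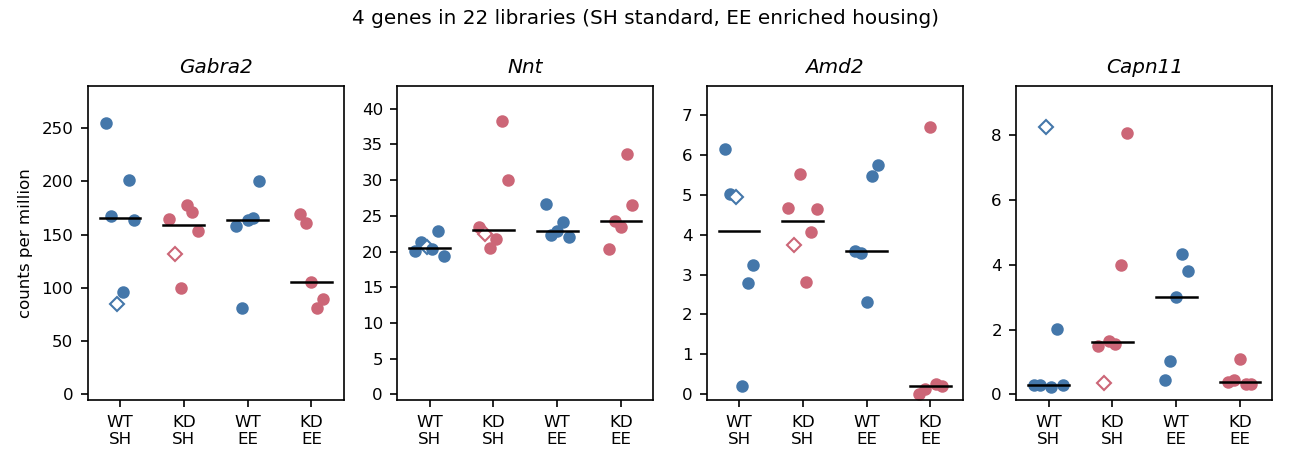
CPM of Gabra2, Nnt, Amd2 and Capn11 in 22 libraries by genotype and housing, with the group median as a line and libraries 12 and 2 as open diamonds. Gabra2 lies between 80.9 and 105.7 CPM in some libraries of every group, and Amd2 is below 0.3 CPM in WT library 13 and in 4 of 5 enriched KD libraries.

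The same genotypes in enriched housing offered an independent set of animals. Among 5 WT and 5 MSK1 KD libraries that passed quality control, 0 of 17698 genes were called by edgeR and 354 (2.00%) had an unadjusted p under 0.05. DESeq2 called 0 of 32467, with 514 (1.58%) at that level. Libraries 9, 31B and 35A among them were left out by the study for poor correlation with their group. With the 7 libraries that the study kept, edgeR called 2 genes and 978 (5.45%) had an unadjusted p under 0.05. The enriched values below are from all libraries that passed. Of the 12 genes higher in standard-housed MSK1 KD mice 10 were also higher in enriched housing, and of the 12 lower genes 11 were also lower, against 48.8% and 51.2% of all genes with those signs. The median log2 fold change of the 12 higher genes was 0.11, and that of the 12 lower genes -0.13, smaller than in standard housing. Gm44164 was at -0.84 (SE 0.36) and Gm5415 at 0.95 (SE 0.43) in enriched housing, each with an unadjusted p under 0.05, as the only such genes of the 24. Rpl22l1 was at 15.7 to 18.1 CPM in enriched WT and 16.7 to 20.7 CPM in enriched KD libraries, with a log2 fold change of 0.12. The exceptions in sign were Hbb-bt at -0.15 and Gkn3 at -0.40 among the higher genes, and Junb at 0.03 among the lower.

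In the activity genes the median was -0.01 in enriched housing, with 0 at an unadjusted p under 0.05. Fos was at 14.3 to 30.3 CPM in enriched WT and 15.5 to 38.88 CPM in enriched KD libraries, and Arc at a log2 fold change of 0.39. Whether the genotype difference changed with housing was tested as the interaction of genotype and housing over 22 libraries. No gene was called, with 0 of 18482 by edgeR and 377 at an unadjusted p under 0.05, and the interaction had an adjusted p of 1.0 for Rpl22l1, Junb and Fos. A difference between the housings in the effect of the kinase-dead allele was therefore not detectable with these libraries.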

How the data were processed

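Poly-A libraries were prepared with an Illumina kit that does not mark strand. Trimming by the authors used Skewer and alignment to GRCm38 used STAR 2.5. They deposited raw HTSeq counts of reads per gene symbol, not normalized and blind to strand. The rows of HTSeq's own totals (14.2% to 16.1% of reads in the 12 libraries) were dropped. A deposited table of all libraries together was not used. Libraries were grouped by their titles.

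Counts were fitted with edgeR 4.0.16 (quasi-likelihood test, filterByExpr, TMM scaling, Benjamini-Hochberg adjustment) in R 4.3.3. Calls needed an adjusted p of at most 0.05 and a log2 fold change of at least 0.38 in size. CPM used TMM scaling over 22 libraries, and log2 CPM a prior count of 2. DESeq2 1.42.0 and limma 3.58.1 were alternatives. List scores averaged log2 CPM over the genes. The floor of 3 counts was 0.0553 to 0.165 CPM and covers counting error only. Replicate pairs all differed by more than sampling noise. Named genes were Rps6ka5 and its family, and the 3 genes that the study listed for this comparison (Rpl22l1, Rpl39 and Gm44164). The 12 higher and 12 lower genes of lowest p with at least 1 CPM in a group were added. So were listed genes and genes within 5 Mb of Rps6ka5. Some listed genes are not reported here. The members and lists were chosen with earlier results of these data known. Exon lengths came from GENCODE for 17044 of 17571 genes, and promoter windows from RefSeq.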

Additional observations from a re-analysis of the deposited data

Results flagged for a closer look

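A library was set apart where its distance from the nearest other library of its group was large for the range of that group of 6. In 116 groups tested, 10 were marked, and chance marks about 1 in 20. Library 2 of KD SH stood at 5.44 for the choroid plexus list against 2.19 for the next library, at 4.67 against 4.64 for the MSK and RSK kinases and at 3.70 against 3.60 for the genes near Rps6ka5. Library 12 of WT SH stood at 5.37 against 3.43 for the thalamic list and at 8.44 against 8.16 for the oligodendrocyte list. Library 14 of WT SH stood at 4.82 against 3.66 for the striatal list, and was low, at 4.62 against 4.74, for the CA3 and CA2 list and, at 29.5 CPM against 34.7 CPM, for Ndufb3. In KD library 5 Rps6ka3 was at 64.0 CPM against 47.1 CPM and the dentate list at 5.34 against 5.83. For no gene named here did the genotype difference change with housing by the interaction test. The effect of housing itself was not tested.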

How the results depend on the processing

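In 25 other settings no gene was called between standard-housed genotypes, and the lowest adjusted p was between 0.104 (DESeq2, Rpl22l1) and 0.997 (without library 1). Leaving out 1 library at a time gave 708 to 1920 genes at an unadjusted p under 0.05, with 364 to 911 higher and 344 to 1009 lower in MSK1 KD, lowest without library 1 and highest without library 6. Without the filter on low counts these numbers were 2038, 945 and 1093, over more genes tested. For Rps6ka5 the difference in mean log2 CPM lay between 0.0047 and 0.077 when 1 library was left out. The log2 fold changes of 5 kinases changed sign in some settings. Without libraries 1 and 5 they were 0.041 for Rps6ka1, 0.038 for Rps6ka2, -0.083 for Rps6ka3 and -0.011 for Rps6ka6. Without libraries 12 and 14 they were 0.022 for Rps6ka1 and -0.0072 for Rps6ka6. Rps6ka3 was at -0.013 by limma voom, and Rps6ka6 at -0.064 without libraries 2 and 12 and at -0.067 in the fit of the 17 libraries of the study. With 1 library left out they ran from -0.0027 to 0.069 for Rps6ka5, -0.072 to 0.019 for Rps6ka1, -0.037 to 0.017 for Rps6ka2, -0.063 to 0.080 for Rps6ka3 and -0.030 to 0.066 for Rps6ka6. The cause of these changes was not tested, and the settings without 1 and 5 or 12 and 14 were chosen after seeing the data.

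In enriched housing 2 genes, Amd2 and Hist1h1c, were called with the 7 libraries of the study, with 978 at an unadjusted p under 0.05, and 0 to 1 (Amd2, without library 9) when 1 library was left out, with 252 to 583 at an unadjusted p under 0.05. This number was 632 with the choroid plexus score as a covariate and 941 without the filter. No paired analysis was possible because the library numbers are not shared between groups. Crb1, Gkn3, Gm5415 and Egr2 rest on few counts.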
